A study of Mus musculus with 2 samples.

Results

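The killer lectin receptors and cytolytic genes followed here are 9 genes by which natural killer (NK) cells and cytotoxic T cells recognise and kill target cells: Klrd1, Klrk1, Klrc1, Klrb1c, Klrg1, Ncr1, Nkg7, Prf1 and Ctsw. They were chosen by name, and every probe set whose only platform gene symbol was one of them was read on both arrays. Of the 9 genes, 8 had such a probe set, 10 probe sets in all, among 18193 genes and 45101 probe sets on the array. Klrb1c was represented only by a probe set that it shares with Klrb1b and had no value of its own. Of the 8 genes, 5 reached the floor, the median signal of each array (65.5 in the knockout against 69.2 in wild type), on both arrays, 2 reached it in wild type only and 1 on neither.

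The arrays compared T helper 2 (Th2) cells of Ecm1 knockout mice with those of wild-type mice, to ask which transcripts differ when these cells lack Ecm1, a secreted matrix glycoprotein. Both groups were C57BL/6 mice, labelled female and kept to 6 weeks of age, and the labels do not say which cells lack the gene or how the allele was made. Spleen cells were freed of red cells, CD4 cells were picked out with a magnetic anti-CD4 step, and they were cultured towards Th2 for 4 days. The T cell receptor was stimulated with anti-CD3 coated on the plate at 3 µg/ml and with 2 µg/ml of anti-CD28. IL-4 was added at what the label, partly garbled, gives as 10 ng/ml, and IFN-γ and IL-12 were each blocked with 10 µg/ml of antibody. Each group had 1 array, and no source used here gives the number of mice behind it, so no difference below carries a test or an SD between samples. In bulk RNA, fewer cells of a type and less RNA per cell cannot be told apart.

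Most killer lectin receptors are encoded side by side in the NK gene complex and tell a lymphocyte whether to kill or to hold back. Klrd1 (CD94) pairs with Klrc1 (NKG2A) into an inhibitory receptor for Qa-1, and Klrk1 (NKG2D) is an activating receptor for stress-induced ligands. Killing itself runs through granules that carry the pore former perforin (Prf1) and proteases. In T cells this equipment is typical of CD8 effectors, is shared by some CD4 effectors, and is promoted by the T-box factors T-bet (Tbx21) and Eomes.

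Some readings bear on the labels of the arrays. Ecm1 read 19.3 in the knockout against 29114.7 in wild type. The Y-linked Eif2s3y read 2214.4 in the knockout against 25.0 in wild type, Kdm5d 410.0 and 20.3 by its brightest probe set, and the 3 Xist probe sets stood at 38.7%, 48.0% and 44.2% of wild type, although both groups are labelled female. These sex-linked readings differ along with genotype. Sex and genotype therefore cannot be told apart in any difference between the 2 arrays given below. The sample descriptions name liver, but all 5 hepatocyte genes with a probe set of their own were below the floor on both arrays. The 8 CD4 T cell markers with a probe set of their own were above the floor on both.

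The promoters of 3 of the genes are given because they belong to a gene with a large difference (Nkg7), a receptor gene that dropped below the floor in the knockout (Klrk1) and a gene with a small difference (Prf1). Each is the 250 bases before the transcript start on the strand of the gene, 5′ to 3′, from RefSeq on GRCm38.p6, the build of the sequence table and not of the array files. Nkg7 is at chr7:43436888-43437137 on the plus strand, Klrk1 at chr6:129623865-129624114 on the minus strand and Prf1 at chr10:61297586-61297835 on the plus strand. Capitals mark a match to one of 4 motifs searched on both strands: GGTGTGA (T-box), TGTGGTT (Runx), CCGGAAG (Ets) and CACACCC (Kruppel-like).
Nkg7: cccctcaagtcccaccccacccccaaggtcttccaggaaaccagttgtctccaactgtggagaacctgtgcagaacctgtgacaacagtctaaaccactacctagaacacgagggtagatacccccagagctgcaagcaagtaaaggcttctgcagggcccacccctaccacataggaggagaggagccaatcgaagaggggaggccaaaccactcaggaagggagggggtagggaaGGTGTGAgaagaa
Klrk1: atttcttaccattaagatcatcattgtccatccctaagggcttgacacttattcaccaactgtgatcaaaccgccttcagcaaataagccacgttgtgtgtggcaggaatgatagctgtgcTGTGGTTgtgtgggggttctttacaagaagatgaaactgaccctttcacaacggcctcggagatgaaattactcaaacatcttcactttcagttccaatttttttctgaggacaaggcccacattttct
Prf1: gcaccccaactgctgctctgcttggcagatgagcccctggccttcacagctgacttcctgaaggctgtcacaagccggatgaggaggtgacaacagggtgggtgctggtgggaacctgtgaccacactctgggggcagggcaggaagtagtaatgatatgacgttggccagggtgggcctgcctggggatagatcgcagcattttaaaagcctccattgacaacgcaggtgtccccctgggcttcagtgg
The Nkg7 promoter held the T-box letters 7 to 13 bases before the start, and 3.33% of all 32851 promoters in the table hold them in the same window. The Klrk1 promoter held the Runx letters 123 to 129 bases before the start, against 4.40% of all promoters, and both listed Ncr1 promoters held them farther from the start. None of the 4 motifs was found in the windows of Prf1, Klrc1 and Klrb1c, which says only that these letters are not there. The Ets and Kruppel-like letters, held by 6.91% and 6.93% of all promoters, were in none of the windows of the 6 genes with an entry in the table (Nkg7, Klrk1, Ncr1, Prf1, Klrc1 and Klrb1c). Klrd1, Klrg1 and Ctsw were not searched. A match is a string of letters and not a measured binding site.

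Among the member receptors, only Klrd1 and Klrg1 were measured on both arrays, and the CD94 gene Klrd1 showed the larger difference. Klrd1 read 111.7 in the knockout against 509.1 in wild type. Its log2 difference, knockout minus wild type and centred on the median of all measured probe sets, was -2.09, which is 4.24-fold lower. Of 10144 genes that reached the floor on both arrays, 30 were as low or lower, Klrd1 included. Klrk1, the NKG2D gene, read 58.6 in the knockout, below the floor, and 181.2 in wild type. Set against the knockout floor this is at least 2.58-fold lower, a log2 bound of -1.37.

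Klrc1, which encodes the inhibitory partner of CD94, barely reached the floor, and did so in wild type only. Its brighter probe set read 11.1 in the knockout against 73.1 in wild type, just above the wild-type floor of 69.2, so the bound was at least 1.04-fold lower (-0.055 on the log2 scale). The dimmer one, which Affymetrix naming marks as reading several transcripts of the gene, read 17.9 and 23.2, below the floor on both arrays. The other NKG2 genes, Klrc2 (0.8 and 9.6) and Klrc3 (27.7 and 0.9), were below the floor on both arrays.

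Klrg1, an inhibitory receptor for cadherins found on terminal effector cells, read 83.7 in the knockout against 150.9 in wild type. The log2 difference was -0.75, or 1.68-fold lower, inside the 2-fold limit. Both readings lay near the floor. Among the members, the probe sets for receptors that identify NK cells were below the floor on both arrays. Ncr1, the NKp46 gene, read 30.2 and 22.2, and the probe set shared by Klrb1c, the NK1.1 gene, and Klrb1b read 25.5 and 5.5. No fold is given for either, since values below the floor on both arrays have no order.

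The granule genes Ctsw and Nkg7 stood with Klrd1. Ctsw, cathepsin W, a cysteine protease made by NK and cytotoxic T cells, read 385.8 in the knockout against 2052.5 in wild type. The log2 difference of -2.31, or 4.95-fold lower, was the largest of those measured on both arrays, and 15 of the 10144 genes were as low or lower. Nkg7, a granule membrane protein of cytotoxic lymphocytes, read 219.1 and 804.9. That is a log2 difference of -1.77, or 3.42-fold lower, with 53 genes as low or lower. Both genes were above the floor on both arrays.

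Perforin did not share this size of difference. The brighter probe set of Prf1 read 281.4 in the knockout against 481.9 in wild type, a log2 difference of -0.67 (1.59-fold lower). The dimmer one read 103.2 and 114.6, a difference of -0.048 (1.03-fold lower). Both were below 0, and both were inside 2-fold. Prf1 is the only member with 2 probe sets measured on both arrays, and they lay 0.62 apart on the log2 scale.

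**Figure D1:**
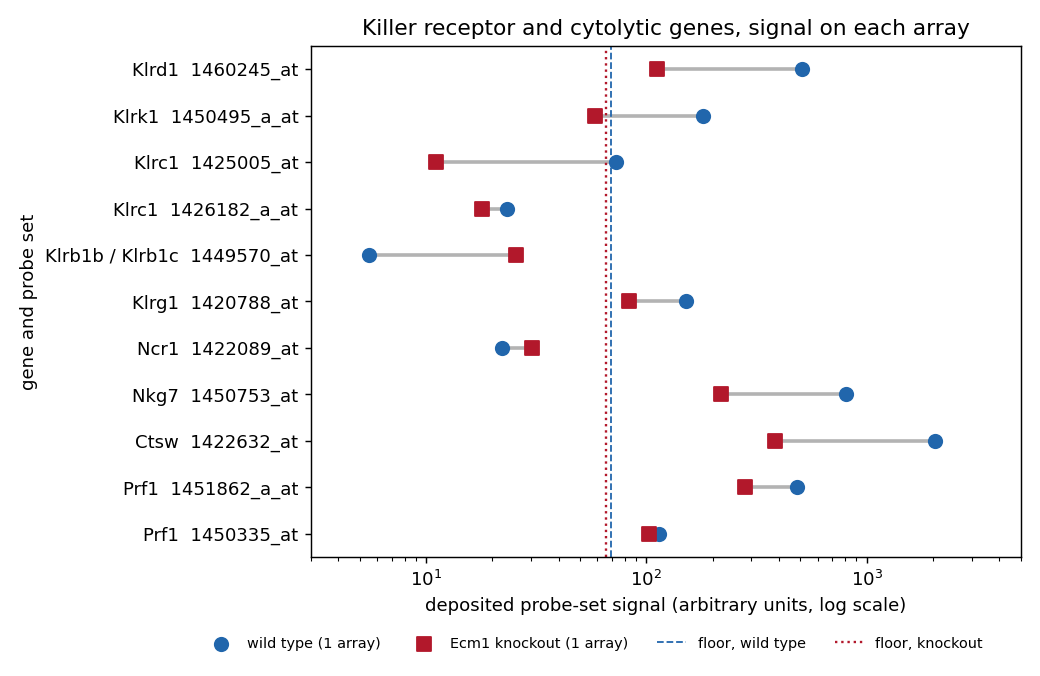
Deposited signal of each probe set of the 9 genes (log scale, arbitrary units), with circles for the wild-type array, squares for the knockout array and vertical lines at the 2 floors. Ctsw, Klrd1 and Nkg7 lie well apart on the 2 arrays and above both floors, Klrk1 crosses the knockout floor, and Ncr1 and the Klrb1b / Klrb1c probe set lie below both.

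Over the set of 9, 7 genes reached the floor on either array, and 4 of these were at least 2-fold lower in the knockout. Of the 4, 3 were so by value (Ctsw, Klrd1, Nkg7, among 5 measured on both arrays) and Klrk1 by its bound. None of the 5 measured on both arrays was at least 2-fold higher. The bounds of Klrk1 and Klrc1 could only lie below 0, and Ncr1 had no value. Among all genes that reached the floor on either array, 4.45% were past the same 2-fold limit on the lower side and 7.37% on the higher side. Among those measured on both, the shares were 4.45% and 7.15%, and 6.02% and 5.79% without centring. Ctsw, Klrd1 and Nkg7 have a geometric mean signal between 100 and 1000, and among the 5418 genes in that range the shares were 5.35% and 7.77%.

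**Figure D2:**
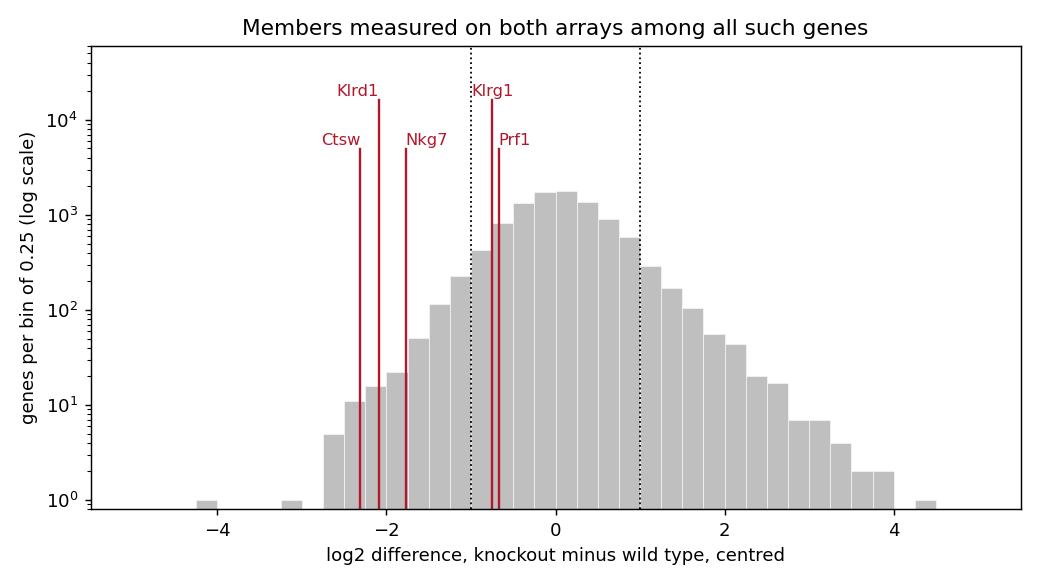
Number of genes (log scale) per bin of log2 difference, knockout minus wild type, for the 10144 genes that reached the floor on both arrays, with red lines at the 5 members measured there and dotted lines at 2-fold. Ctsw (-2.31), Klrd1 (-2.09) and Nkg7 (-1.77) lie in the sparse lower tail, and Klrg1 (-0.75) and Prf1 (-0.67) lie inside 2-fold.

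The only internal measure of error was the agreement between probe sets of a gene. Over 4657 genes that had another measured probe set, the technical SD was 0.36 on the log2 scale, and it was 0.40 in the 1975 genes whose brighter probe set averaged from 100 to 1000. The differences of Ctsw, Klrd1 and Nkg7 were several times that SD, and those of Klrg1 and Prf1 were not. Each of the first group rests on a single probe set. In that signal range, 85 genes had a brighter probe set at least 2-fold lower. Their next probe set was below 0 in 75 of them and at least 2-fold lower in 33. This SD leaves out differences between mice, cultures and arrays.

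Some markers of the lymphocytes that carry these genes were lower on the same array. Of 7 CD8 T cell markers that are not members and had a probe set of their own, 6 reached the floor and 2, Cd8b1 (541.0 against 1326.0, -1.19) and Cd8a (112.4 against 276.3, -1.19), were at least 2-fold lower. The other 3 measured probe sets of Cd8a were at -0.41, -0.40 and 0.40. The summed signal of the 7 was 3028.3 in the knockout against 4552.7 in wild type, and Crtam (5.6 and 11.4) was below the floor on both. Eomes, on the CD8 and NK lists alike, was at 0.35 by its brighter probe set and -0.76 by the other. Of 10 NK cell markers with a probe set of their own, 4 were below the floor on both arrays, Ncr1, Klra8, Klra1 and Itga2. The other 6 reached it, and 3 of them were at least 2-fold lower, Gzma, the member Klrd1 and Txk. Txk read 46.3, below the floor, against 239.4, a bound of -1.77. None of the 3 markers measured on both arrays was at least 2-fold higher, and the bounds of the others that reached the floor could only lie below 0. Among all genes that reached the floor on either array, 4.45% were at least 2-fold lower. The sum of the 10 NK cell markers was 9241.0 in the knockout against 30324.7 in wild type, most of it Gzma, which activated T cells also make. Without Gzma, Klrd1, Klrc1 and Ncr1 it was 395.6 and 686.5. The part of CD8 T cells or NK cells in the differences was not tested.

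CD4 T cell markers were lower too, while those of B-lineage cells and macrophages were higher. All 8 measured CD4 T cell markers were below 0, 3 of them at least 2-fold lower (Cd4 at -1.59, Cd5 at -1.41, Cd28 at -1.03), with a median of -0.76. Ctsw lay -1.55, Klrd1 -1.32 and Nkg7 -1.01 from that median. None of the 8 markers was as low as any of these genes by its brightest probe set. The other Cd4 probe set (90.2 against 324.7) was at -1.74, close to Nkg7 at -1.77. Klrg1 lay 0.014 and Prf1 0.089 from the median of the markers. The summed signal of the CD4 T cell markers was 42704.4 in the knockout against 78359.7 in wild type, that of 7 B cell markers 33531.6 and 16511.5, that of 7 plasma cell markers 69379.3 and 33628.4, and that of 9 macrophage markers 6566.9 and 1219.0. Among these only Itgam was below the floor on both arrays by every probe set, and Pax5 was so by its brighter one and read 72.9 and 15.2 by the other. The part of this cell makeup in the differences was not tested.

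Most genes around the members in the genome were below the floor or inside 2-fold. Klrd1, Klrk1 and Klrc1 sit in a run on chromosome 6, with Klre1 on one side of Klrd1 and Klrc3 and Klrc2 between Klrk1 and Klrc1. From Klrb1a to Klra2, 25 killer lectin receptor genes and 23 other protein-coding genes follow one another in RefSeq. Of the 25, 15 had a probe set of their own. By at least 1 probe set, 6 reached the floor in wild type (Klrd1, Klrk1, Klrc1, Klre1, Klrb1f and Klra7) and only Klrd1 in the knockout. By the brightest probe set, 5 of the 15 reached it on either array and 1 on both, beside 11265 and 10144 of all 18193 genes. The wild-type signals of Klrc1 (73.1) and Klre1 lay just above the floor of 69.2, so these counts do not measure a loss. Klre1, which encodes a receptor that pairs with the Klri chains, read 4.8 and 75.7, and Klrb1f, a receptor of the Nkrp1 family, 18.0 and 102.4. Their bounds were -0.11 and -0.54, both inside 2-fold. Klra7, a Ly49 receptor gene, read 1.0 and 133.6 by one probe set, a bound of -0.93, and 63.4 and 6.8, below both floors, by the other, which has the brighter mean. The other 9 genes, among them the remaining Ly49 (Klra) genes that had a probe set of their own, were below the floor on both arrays by every such probe set. Some Klra probe sets are shared between near-identical genes and were not assigned.

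Neighbours that are not killer lectin receptor genes were at other values. Gabarapl1, next to Klre1, read 487.6 and 519.2 (0.012), Cd69 in the same run was at 1.37, and Clec7a, a receptor of myeloid cells, at 2.01. Of 30 genes within 2 places of a member in the gene order that are not members, 11 were measured on both arrays, from -0.22 to 1.16. None was at least 2-fold lower, and 1 was at least 2-fold higher (BC035044, 1.16). Over all genes measured on both arrays these shares were 4.45% and 7.15%, so 11 genes are too few to read such counts. Beside Ctsw lie Fibp (0.13) and Ccdc85b (-0.15), and beside Nkg7 lie Lim2 (0.69) and Etfb (0.86). The large differences of Ctsw and Nkg7 were not seen in the measured genes beside them.

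Other genes of recognition and killing were read through lists of 153 genes in all, of which 100 reached the floor on at least 1 array by their brightest probe set. Past the 2-fold limit, by value or bound, were 23 lower and 7 higher genes of the 100, beside 4.45% and 7.37% of all genes. Many of them are also T cell genes, and CD4 T cell markers were lower as described, with a median of -0.76. The part of T cell content in the list counts was not tested. Of these 30, 12 were inside 2-fold or without a value in at least 1 alternative: Cd7, Hcst, Gzme, Gzmg, Serpinb9, Sytl2, Fasl, Tnfsf10, Tgfbr2, Tnf, Lta and Cfp. The lists were chosen with earlier results of these arrays known.

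Of 15 other activating or inhibitory receptors with a probe set of their own, 11 reached the floor, and past 2-fold were 3 lower genes and 1 higher gene. Cd96, a receptor for the poliovirus receptor, read 366.4 and 1317.1 (-1.74), and the Fc receptor Fcgr3, which NK and myeloid cells share, 960.1 and 2969.6 (-1.53). Cd7, a surface protein of T and NK cells, read 8.1 against 145.6, a bound of -1.05. The activation marker Cd69 was the higher one (1480.2 and 615.7, 1.37), and Pilra, an inhibitory receptor of myeloid cells, read 116.5 against 58.0 below the wild-type floor, a bound of 0.85. The adhesion receptor Cd2 (-0.71) and Slamf7 (0.93) lay inside 2-fold. The probe sets of Slamf6 disagreed, at 0.76 for the brightest and 1.11 and -0.46 for the others.

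Adaptors of the receptors split in both directions. Hcst (DAP10), the adaptor of NKG2D, read 1318.7 and 2867.4, a log2 difference of -1.02, and stood lower with Klrk1. Tyrobp (DAP12), which NKG2D and other killer receptors can also use, read 445.5 and 470.7 (0.024). Cd247 (CD3 zeta) was at -1.29, with -1.25 and -1.14 in its other measured probe sets, and the SLAM adaptor Sh2d1a at -1.43. Fcer1g (993.9 and 438.5, 1.28), an adaptor of NK and myeloid Fc receptors, and the kinase Syk (1977.9 and 576.0, 1.88) were at least 2-fold higher. The median over the 13 adaptor genes was -0.098, beside 0.041 over all genes. Tyrobp, Fcer1g and Syk are also abundant in B or myeloid cells.

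Ligands of the receptors were mostly dim. Of 10 ligand genes with a probe set of their own 6 reached the floor. Clec2d, a ligand of Nkrp1 receptors, read 6676.4 and 10216.4 (-0.51), and Clec2i 157.4 and 307.5 (-0.86), with -1.41 in its other probe set. Cfp, properdin, a complement protein, was at 1.78 by its brighter probe set and -1.03 by the other. Cdh1, the E-cadherin bound by Klrg1, read 93.2 and 41.1, a bound of 0.53, and Clec2e 76.3 and 7.3, a bound of 0.24. H2-T23, the Qa-1 gene, was read only by probe sets shared with other genes and was not analysed here. The NKG2D ligands Ulbp1 and H60c were below the floor on both arrays.

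Granzymes differed by unequal amounts. Of 18 genes for granule proteases, their processing and inhibitors that reached the floor on either array, 6 were at least 2-fold lower and Ctsh (1.67, and 1.79 in its other probe set) was at least 2-fold higher. Gzma read 8692.4 and 29033.8 (-1.64), and Gzmc 85.0 and 1600.3 (-4.13). Gzmd, Gzme and Gzmg were below the floor in the knockout, with bounds of -4.42, -2.87 and -2.36, and these near-identical genes may share signal. Gzmb, the granzyme typical of killer cells, read 14331.3 and 19512.5 (-0.34), inside 2-fold as Prf1 was. The granule matrix proteoglycan gene Srgn (28705.2 and 30657.4) was at 0.0080. Ctsc, whose product activates granzymes, was at 0.61. Of the granzyme inhibitors, Serpinb9 was at -1.18, with -0.51 in its other probe set, Serpinb6a at -0.82 and Serpinb6b at -0.81, and Serpinb9b read 16.1 and 74.3, a bound of -0.079. Cst7, cystatin F, an inhibitor of granule cathepsins, was at -0.51.

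Genes for moving and releasing granules mostly lay inside 2-fold. Of 16, Lyst (1607.6 and 5452.6, -1.66), whose loss gives giant granules, and Sytl2 (68.2 and 327.5, -2.16), a partner of Rab27a at the membrane, were at least 2-fold lower, and no gene was past 2-fold on the higher side. The knockout signal of Sytl2 lay at the floor. Unc13d (-0.19), Rab27a (-0.62), Stx11 (-0.45) and Stxbp2 (-0.25), which are needed for granule release, were inside 2-fold, and the other probe sets of Stxbp2 were at -0.12 and 0.48. The median of the 16 was -0.25.

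Death ligands went both ways. Fasl read 64.9, just below the knockout floor, and 164.1, a bound of -1.22, and Tnfsf10 (TRAIL) 137.4 and 314.4 (-1.09). The other probe sets of Tnfsf10 were at -0.84 and at a bound of -0.23, and the other one of Fasl had a bound of -0.36. Tnf was at 1.36 and Lta at 1.06, and Ifng reached the floor on neither array.

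Of the transcription factors of the killer programme, 18 of 19 reached the floor on each array, and 5 were past 2-fold, each of them lower in the knockout. Tbx21 read 504.7 and 1489.8 (-1.46) and Klf2, a quiescence and homing factor, 1350.2 and 7282.1 (-2.33). Bhlhe40 was at -1.43, the homeodomain protein gene Hopx at -1.28 (-0.99 in its other probe set) and the IL-12 signal transducer Stat4 at -1.05. Eomes did not follow Tbx21, with 304.8 and 256.8 (0.35) by its brighter probe set and 155.4 and 282.2 (-0.76) by the other. Runx3 (-0.25) and Id2 (-0.30) lay inside 2-fold. Ets1 read 12494.5 and 24819.3 (-0.89).

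Of 11 measured receptors for cytokines that act on killer genes, 2 were at least 2-fold lower, the IL-18 receptor chain Il18r1 (259.6 and 781.2, -1.49) and the TGF-β receptor Tgfbr2 (3099.2 and 7191.4, -1.11). Another probe set of Tgfbr2 had a bound of -0.62. Il2rb, the chain that IL-2 and IL-15 share, was at -0.15, and Il12rb2 reached the floor on neither array. The median of the 11 was -0.15.

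**Figure D3:**
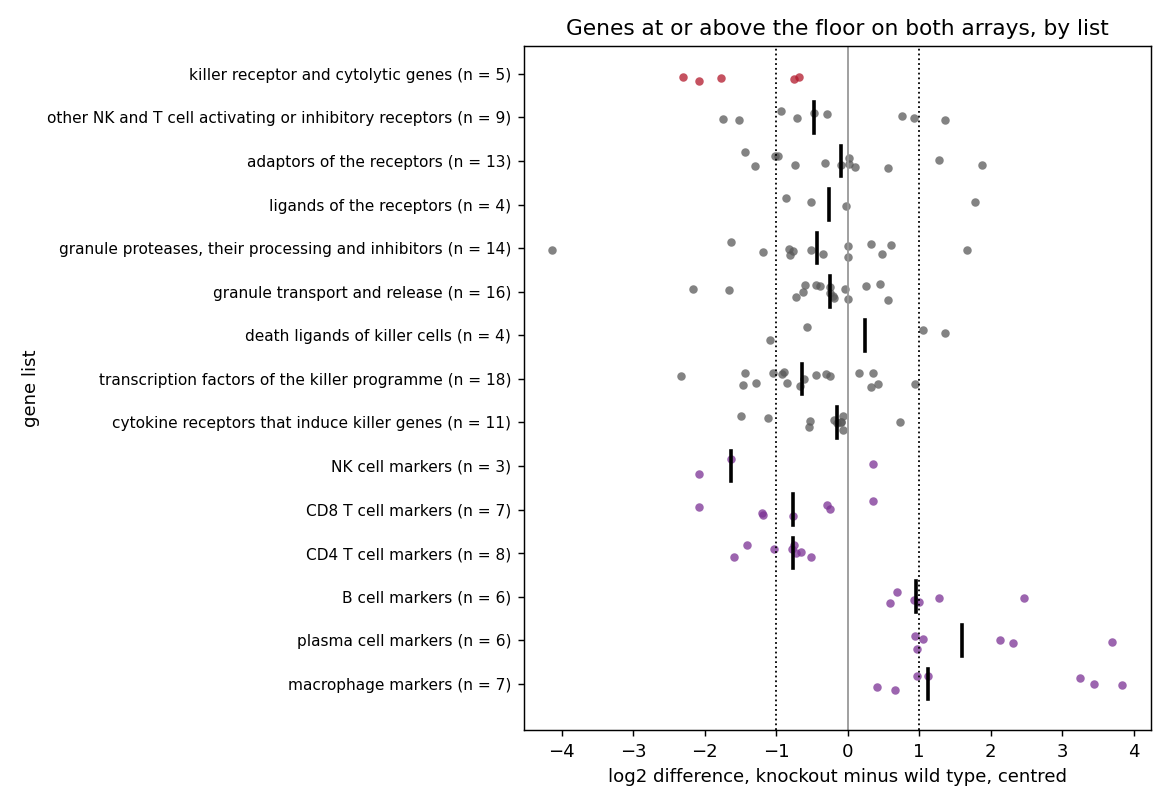
Log2 difference, knockout minus wild type, of each gene that reached the floor on both arrays (points), by list, with black bars at list medians (none for the killer receptor and cytolytic genes) and dotted lines at 2-fold. Transcription factor, granule transport and cytokine receptor lists lie mostly below 0, and granule proteases, adaptors and death ligands spread to both sides. CD4 T cell markers lie at -0.52 or lower and B cell, plasma cell and macrophage markers above 0. Some genes stand on more than 1 list.

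The choice of floor and pseudocount moved some members that were dim. Raising the floor to the 70th percentile (280.6 in the knockout against 308.8 in wild type) left Klrd1 with a bound of -0.76, inside 2-fold, and adding 64 to each signal left Klrk1 with a bound of -0.84. Ctsw and Nkg7 were past 2-fold in every setting shown.

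**Figure D4:**
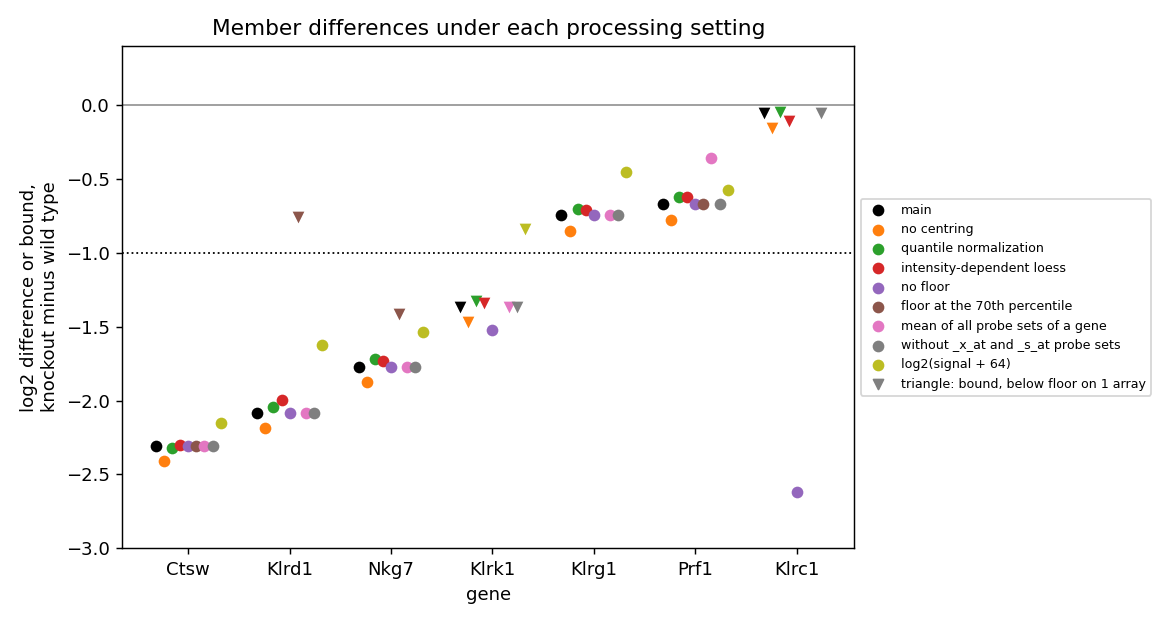
Log2 difference (circles) or bound (triangles, knockout signal below the floor), knockout minus wild type, of the 7 members with a value, under the main setting and 8 alternatives, with a dotted line at 2-fold. Ctsw (-2.41 to -2.15) and Nkg7 (-1.88 to -1.42) stay below the line in each setting, while Klrd1 and Klrk1 each have 1 bound above it, and Klrc1 is far below it only with no floor.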

How the data were processed

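Biotin-labelled cRNA from 3 µg of total RNA was hybridised to 1 Affymetrix mouse array per group, per the labels' protocols. The values deposited by the authors are linear signal intensities per probe set. Which software summarised the probes is not given in the sources used. The arrays were globally scaled, since the mean of the middle 96% of signals was 500.004 on each, so abundant transcripts that differ shift the others. The number of arrays limits the precision, and no detection calls were used.

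Of 45101 probe sets, 34945 had 1 gene symbol in the platform annotation, 932 several and 9160 none, and 64 were controls. Signals below the array median were treated as at the floor. The log2 difference was centred on its median (-0.10) over 20834 probe sets at the floor or above on both arrays, controls left out. The probe set with the highest mean log2 signal stood for a gene. Where the signal on 1 array lay below the floor, only a bound is given. It was kept only if its sign favoured the array that reached the floor. With 1 array per group no test was run. Members, lists and alternatives were chosen with earlier results of these data known. The rule for names took the members, list genes at least 2-fold apart or below the floor on 1 array, and brighter list genes. Not all of these are named, and probe sets that differ from a gene's brightest one were added after values were seen. Gene neighbours and the signal range of 100 to 1000 were chosen after values were seen, as were Eif2s3y, Kdm5d and Xist. Promoter windows of opposite strand overlapped as reverse complements in 1668 of 1668 pairs. The calling step was tested on simulated data. Python 3.11.15, pandas 2.3.3 and statsmodels 0.14.6 were used.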

Additional observations from a re-analysis of the deposited data

How the results depend on the processing

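No paired analysis was possible because there was 1 array per group. The alternatives tried were quantile normalization, loess on intensity (span 0.3), signals without centring, no floor, a floor at the 70th percentile, the mean of all probe sets, no _x_at or _s_at probe sets, and a pseudocount of 64. The 5 members measured on both arrays in the main setting stayed below 0 in each alternative that gave a value or bound. For a gene above the floor in wild type only, a bound was kept only if it lay below 0. Bounds such as those of Klrk1 and Klrc1 could therefore not come out above 0. Klrc1 gave a value or bound in 5 of the 8 alternatives. Ctsw ranged from -2.41 to -2.15 and Nkg7 from -1.88 to -1.42, the last a bound at the higher floor. Klrd1 had a bound of -0.76 at the higher floor, where its knockout signal lay below it, and was at -1.62 with the pseudocount. Klrk1 had a bound of -0.84 with the pseudocount, inside 2-fold, and no value at the higher floor, where it was below the floor on both arrays. Klrc1 was at -2.62 with no floor, from signals that have no order. The count of members at least 2-fold lower was 4, and 2 at the higher floor, and lay from 2 to 5 over the alternatives, while none was at least 2-fold higher.

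Of 23 list genes at least 2-fold lower, all 23 stayed so under no centring, quantile normalization, loess and no floor, 17 at the higher floor, 19 with probe sets averaged, 19 with the pseudocount and 22 without _x_at and _s_at probe sets, where Gzme had no probe set left. Tgfbr2 and Serpinb9 were inside 2-fold with probe sets averaged, Fasl and Tnfsf10 with these and with the pseudocount, Tnfsf10, Sytl2, Gzme and Gzmg at the higher floor, and Hcst and Cd7 with the pseudocount. Fasl and Cd7 had no value at the higher floor, being below it on both arrays. Of 7 at least 2-fold higher, Lta was inside 2-fold without centring, Tnf and Cfp at the higher floor, and Cfp with probe sets averaged. Their number was 21 with no floor. Without centring the median over all genes measured on both arrays was -0.062 in place of 0.041, and 611 were at least 2-fold lower and 587 higher, against 451 and 725 with it. Signals near the floor, with 1 array per group, limit what Klrk1, Klrc1 and Klrg1 can show.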
